A study of Mus musculus with 8 samples.

Results

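The oligonucleotides described here are 20311 of the 122095 different 60-base sequences printed on a universal DNA microarray (16.6%). They were chosen by sequence alone. Each carries the 24 final bases that are commonest on the array, 4 to 8 dipyrimidine steps counted over the printed strand and its complement, no adjacent thymines on either strand, and no pyrimidine run longer than 7 bases. Sequences designed for RUNX, GATA, E2F1, Myc, ETS1 or CTCF were left out by their names. Every step in a member is therefore TC, CT or CC, read 5′ to 3′, and each of these holds cytosine.

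The array was stained with 1 of 2 mouse antibodies and read by Alexa 488 fluorescence. The 8 arrays form 4 groups of 2, as the labels give them, where an array stands for 1 labelled sample. The antibody against cyclobutane pyrimidine dimers (CPDs), diluted 1:400, was applied to 2 arrays treated with UV and to 2 arrays without UV, and the antibody against 6-4 photoproducts (6-4PPs), diluted 1:80, likewise. The arrays carry synthetic DNA with no genome position, and the labelled organism, the mouse, is the one that made the antibodies. How much UV was given, how arrays were stained and how the complement strand was made are points that the labels leave unstated. They also do not state whether the arrays of a group were treated separately, or whether the 2 antibodies had different physical arrays. P-values therefore measure the spread between these arrays, which may be technical.

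CPDs and 6-4PPs are the main lesions that UV light makes in DNA. Both join neighbouring pyrimidines of the same strand: a CPD through a ring between the bases, a 6-4PP through a single bond. Adjacent thymines are known as the site where CPDs form most readily, and TC is known as a favoured site of 6-4PPs. A set without adjacent thymines shows the staining of the cytosine-holding steps. How far staining follows the number of lesions, or how well an antibody binds them, was not tested. The antibodies also differ in dilution, so the sizes of their effects may not share a scale.

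The members differ in their first 27 bases and share the 33 bases that follow, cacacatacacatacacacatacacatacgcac, which hold no step. In the sequences below, capitals mark every base that lies in a step of either strand, so that a capital pair of purines (GA, AG or GG) is a TC, CT or CC step of the complement. The first 6 hold steps of a single type, 2 for each type. All members with only TC or only CT steps have 4 steps, so the pairs shown for these are the first by alphabet among ties, while the CC pair has 8 steps.
TC only, first: atgcacGATCatGAtaTCgtgcgcacg
TC only, second: atgcaTCGAcgtgcGATCatgcgcacg
CT only, first: atgcaCTAGcAGcgtAGcatgcgcacg
CT only, second: atgcaCTAGtAGCTgcgcgtgcgcacg
CC only, first: atgcaCCCCaCCgcGGGGGtgcgcacg
CC only, second: atgcacGGGGGCCatGGGGtgcgcacg
The next 5 keep 1 frame of bases and change only a short stretch in its middle. Each was printed on 10 or 20 spots, and they were picked after their values were seen.
Frame ATCGA: cgtgtataCCGGATCGAtgcgtatacg
Frame ATCC: cgtgtataCCGGATCCatgcgtatacg
Frame ATCT: cgtgtataCCGGATCTatgcgtatacg
Frame ATAGA: cgtgtataCCGGAtAGAtgcgtatacg
Frame ATGGA: cgtgtataCCGGAtGGAtgcgtatacg
The last 6 had the largest or the smallest UV effects and are described at the end.
6-4PP rank 2: gtatgcacGATCGATCaCTCgcgcacg
6-4PP rank 3: tatgcaCTCaCTCGATCaCCgcgcacg
6-4PP lowest but one: atgcataCCatGGcAGCCgtgcgcacg
CPD rank 2: tatgcaTCgTCaCTaCTaCCgcgcacg
CPD rank 4: gtatgcGGTCTGAcaCTaCTgcgcacg
Both antibodies rank 1: tatgcAGAGtGAtgTCGGGtgcgcacg

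By number of steps the members fell to 7699 with 4, 5862 with 5, 3530 with 6, 2032 with 7 and 1188 with 8. A TC step was held by 17971 members, a CT step by 18008 and a CC step by 18018, and 13821 held all 3 types. Steps of a single type were rare except for CC: 7 members held only TC, 8 only CT and 431 only CC. The sets named for all 8-mers and all 9-mers gave 12175 and 7961 members, so many members share stretches of sequence and are not independent of each other. A single spot stood behind 19381 members, and 166 had 6 spots or more, whose log2 values had a median SD between spots of 0.11 to 0.23 per array. Between 8 and 21 member spots per array lay at the scanner ceiling of 65535.

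UV raised the 6-4PP staining of the members well above that of DNA without a step and the CPD staining by much less. In CPD staining, the members had a median adjusted intensity of 1921 and 1874 on the UV arrays, against 1242 and 1042 on the arrays without UV. The 550 sequences without any step had 1617 and 1603 on the UV arrays, against 1219 and 1048 without UV. The members therefore stood 0.24 ± 0.02 (log2, SD, n = 2) above the step-free sequences under UV and 0.01 ± 0.03 above them without UV. With the 6-4PP antibody the members had 5304 and 5308 on the UV arrays, against 1510 and 1224 without UV. The step-free sequences had 1954 and 1951 on the UV arrays, against 1497 and 1246 without UV. The distance was 1.44 ± 0.003 under UV and -0.01 ± 0.03 without UV. Both UV arrays lay above both arrays without UV for either antibody, but an exact two-sided permutation test of 2 arrays against 2 cannot go below p = 0.333.

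The spread among members was wide for 6-4PP and narrow for CPD. From the 5th to the 95th percentile, the members ran on the first UV array of each antibody from 1427 to 2969 with CPD and from 2260 to 16938 with 6-4PP. On both 6-4PP UV arrays 89.0% of the members (18070) exceeded the 95th percentile of the step-free sequences, and on both CPD UV arrays 30.0% did (6096). Without UV the shares were 0.478% for 6-4PP and 0.551% for CPD. Over the members the 2 UV arrays correlated at r = 0.93 with 6-4PP and r = 0.45 with CPD (n = 20311, points that share arrays and spots). Without UV r was 0.01 for 6-4PP and -0.01 for CPD. The first and the second CPD UV array each correlated at r = 0.41 with the same-numbered 6-4PP UV array, almost as much as with each other. With the other-numbered 6-4PP UV array r was 0.31 and 0.25.

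Sequences with adjacent thymines had far higher CPD levels than the members. The 54994 sequences with the same limits on steps, run and name but with at least 1 TT step had medians of 6545 and 5855 on the CPD UV arrays and 9220 and 9281 on the 6-4PP UV arrays. The members stood 0.24 above step-free DNA with CPD, against 1.94 for the TT-holding sequences, while with 6-4PP they stood 1.44 above it, against 2.24. Sequences with exactly 1 TT step (24577) stood at 1.43 with CPD and 2.15 with 6-4PP. At 8 steps the members had 9148 and 9093 on the 6-4PP UV arrays, above the 7120 and 7117 of TT-holding sequences with 4 steps. With CPD the 8-step members had 2017 and 1960, below the 4364 and 3991 of sequences whose only step is TT.

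Each sequence was also tested on its own with limma across all 122095, after every array had been centred on its own median, so that a call tells how a sequence moved relative to the array as a whole. With CPD 18311 members (90.2%) passed an adjusted p of 0.05, 13 higher and 18298 lower, against 79.7% of all sequences in either direction, 39.5% higher and 40.2% lower. The 13 called higher became 3 without the second CPD array without UV, 94 without the first CPD UV array and 68 without the second. Without centring 16465 members were higher and 1 lower, against 92% of all sequences higher and 0.00164% lower. With 6-4PP 14520 members (71.5%) passed, 4785 higher (23.6%) and 9735 lower, against 76.4% of all sequences in either direction, 36.4% higher and 39.9% lower. Without centring 19608 members (96.5%) were higher, a share near the 96% of all sequences, and 0 lower (limma; 0 at an unadjusted p under 0.05), against 0.00164%. The difference of the UV effects, CPD minus 6-4PP, passed in 10705 members (52.7%), 1115 higher and 9590 lower, against 51.7% in either direction, 33.6% higher and 18.1% lower among all sequences. The 1115 called higher became 550 and 537 without the first or second CPD array without UV, 638 without the second CPD UV array, and 703 and 734 without the first or second 6-4PP UV array. Without centring 2 were higher and 12377 lower, against 6.58% higher, 27.9% lower and 34.4% in either direction among all sequences. The deviations of same-numbered arrays of the 2 antibodies from their group means correlated at 0.77 without UV and 0.71 under UV, so the 2 antibodies' arrays do not vary independently.

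Grouping members by their numbers of TC, CT and CC steps gave 85 classes of at least 20 sequences, which hold 20070 members. The value of a class on an array was its median log2 intensity minus that of the step-free sequences on the same array, so it does not depend on centring. With 6-4PP all 85 classes were higher on UV arrays (limma, adjusted p at most 1.2e-05), against 99.8% of all 474 classes of the array. Their UV effects ran from 0.31 to 3.10 (log2). With CPD 76 were higher, against 96.2% of all classes, with effects of -0.02 to 0.64 over the 85. The count of 76 fell to 62 when the second CPD array without UV was left out. The UV effect of CPD was smaller than that of 6-4PP in 84 classes, against 65% of all classes lower, 18.4% higher and 83.3% in either direction. In the class of 3 CT and 1 CC steps (n = 117) the difference was -0.04 ± 0.06 (SE, limma adjusted p = 0.58).

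CPD staining rose most with CT. The 9 classes not called with CPD held at most 1 CT step, and 8 of them held none. Of the 14 classes without a CT step, however, 6 were called. Effects among these 14 reached 0.28, near the median of the classes with 2 CT steps (0.28). The lowest class effect also rose with TC, from -0.02 at 0 TC steps to 0.26 at 4. The highest CPD class had 1 TC and 4 CT steps (n = 41), with 0.70 and 0.61 above step-free DNA on the UV arrays, against 0.02 and 0.02 without UV. Its UV effect was 0.64 ± 0.05 (SE, limma adjusted p = 6.6e-08). The classes next to it had 1 TC, 4 CT and 1 CC (0.60), 1 TC, 4 CT and 2 CC (0.56), 3 CT and 1 CC (0.55), and 3 CT and 2 CC (0.54). At the other end, 6 CC steps alone (n = 37) gave -0.02 ± 0.04, 4 CC alone (n = 271) gave 0.01 ± 0.04 and 5 CC alone (n = 112) gave 0.03 ± 0.04, with limma adjusted p-values of 0.70, 0.89 and 0.51. The 2 other classes among the lowest 5 held 1 TC step beside 6 or 4 CC steps, at 0.04 each.

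6-4PP staining followed TC. The 5 highest classes all held 4 TC steps, and the top one, with 4 TC, 1 CT and 3 CC (n = 23), stood at 3.19 and 3.08 above step-free DNA on the UV arrays, against 0.02 and 0.05 without UV. That is a level 8.79 times the step-free one, and the UV effect was 3.10 ± 0.05 (SE, limma adjusted p = 3.5e-14). The classes with only CC steps were at 0.31, 0.39 and 0.42 with 4, 5 and 6 steps, all past the threshold. They and the classes of 1 CT beside 3 CC (0.41) and 4 CC (0.50) made up the lowest 5. With CPD these last 2 were at 0.13 and 0.11. The CPD call of the first was lost without the second CPD array without UV, and that of the second without either CPD array without UV.

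Counting each step type over all members gave the same order. From 0 to 6 TC steps the median 6-4PP distance above step-free DNA on UV arrays was 0.48, 1.10, 1.78, 2.35, 2.96, 3.45 and 4.13, the last from a single member. CPD over the same numbers lay between 0.19 and 0.42. From 0 to 5 CT steps CPD was 0.11, 0.19, 0.28, 0.42, 0.53 and 0.67. For CC the median went down as the number rose, with 1.73 for 6-4PP and 0.34 for CPD at 0 steps and 0.81 and 0.13 at 6 steps. Members rich in CC have fewer TC and CT steps, since the total is bounded by 8.

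At exactly 4 steps of a single type, the 7 TC members had medians of 13430 and 15468 on the 6-4PP UV arrays, the 8 CT members 3028 and 3534, and the 271 CC members 2397 and 2426. On the CPD UV arrays the order changed: CT members had 2803 and 2647, TC members 2044 and 1915, and CC members 1627 and 1641. The CC members thus lay next to the step-free 1617 and 1603 with CPD.

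A regression on the 3 numbers of steps, made on each array, summarised these trends. One TC step added 0.65 ± 0.01 to log2 6-4PP signal (UV minus no UV, SD of the difference, n = 2 arrays each), a factor of 1.56, while CT added 0.11 ± 0.003 and CC 0.11 ± 0.005. With CPD a CT step added 0.11 ± 0.01, TC 0.02 ± 0.01 and CC -0.01 ± 0.01. The numbers of steps accounted for 38.3% of the variance among members on the 6-4PP UV arrays and 7.41% on the CPD UV arrays. Without UV they accounted for 0.019% and 0.081%.

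The level also differed with the bases beside a step. When each step was entered with its flanking bases, the share of variance rose to 67.0% for 6-4PP and 21.7% for CPD. A context with a pyrimidine beside the step shares its sites with other contexts. The fit cannot separate these, so only coefficients of steps between purines are given. For 6-4PP the coefficient of TC depended on the base before it and, less, on the base after it. ATCA added 1.25 and ATCG 1.00, while GTCA added 0.28 and GTCG 0.22. The CC contexts between purines lay between 0.13 and 0.26. Those of CT were 0.37 (ACTA), 0.21 (ACTG), 0.13 (GCTA) and 0.10 (GCTG). ACTA thus lay above both GTCA and GTCG, and ACCA (0.26) lay above GTCG. For CPD the highest coefficient between purines was that of ACTA (0.41), followed by ACTG (0.19), GCTA (0.18) and ATCA (0.16).

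Pairs of members that differ by a single change and are otherwise identical gave the same contrasts with the rest of the oligonucleotide held fixed. In 626 pairs with ATC or GTC on the printed strand, ATC was higher by a median of 1.06 and 1.07 (log2) on the 6-4PP UV arrays, against 0.01 and -0.01 without UV. ATC was the higher member on both UV arrays in 98.2% of pairs, against 24.9% on both arrays without UV. On the complement (623 pairs) the medians were 0.58 and 0.54. Replacing TCA by TCG lowered the 6-4PP signal less: TCA was above TCG by 0.33 and 0.34 in 460 printed-strand pairs. On the complement (459 pairs) TCA was above TCG by 0.08 and 0.06.

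Between A on either side, exchanging the order of T and C gave opposite signs with the 2 antibodies. In 284 pairs that carry ATCA in 1 member and ACTA in the other on the printed strand, ATCA was above ACTA by 1.10 and 1.07 on the 6-4PP UV arrays and below it with CPD, at -0.29 and -0.29. Without UV the 6-4PP medians were -0.02 and -0.04 and the CPD medians 0.01 and 0.01. ATCA was higher on both 6-4PP UV arrays in 97.9% of pairs, while ACTA was higher on both CPD UV arrays in 74.6%. In other flanks the CPD side was smaller: on the printed strand the median of ATCG over ACTG (557 pairs) was -0.10 and -0.09 with CPD, against 1.03 and 1.00 with 6-4PP. GTCG over GCTG on the complement gave CPD medians of -0.02 and 0.01, with no common sign. Over ACCA on the printed strand, ACTA was higher by 0.47 and 0.42 with CPD, and ATCA was higher by 1.42 and 1.37 with 6-4PP. The flank counted for CPD too. On the printed strand CTA exceeded CTG by 0.24 and 0.22 (647 pairs) and ACT exceeded GCT by 0.29 and 0.22 (463 pairs). On the complement these CPD differences were smaller, at 0.08 and 0.06 (649 pairs) and 0.12 and 0.08 (461 pairs). These CT contrasts were not particular to CPD. On the 6-4PP UV arrays the printed-strand pairs gave 0.18 and 0.22 for CTA over CTG and 0.42 and 0.40 for ACT over GCT. ACTA over ACCA gave 0.27 and 0.30 there.

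After a G the contrast between the steps shrank. GTCG exceeded GCCG by only 0.19 and 0.16 on the 6-4PP UV arrays in 471 printed-strand pairs, against 1.21 and 1.17 for ATCG over ACCG in 540 pairs. GCTG and GCCG differed by 0.01 and -0.01 with 6-4PP (475 printed-strand pairs).

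The 5 frame sequences, picked after their values were seen, are given as a description and support nothing further. On the 6-4PP UV arrays ATCGA had 15440 and 14178, ATCC 9569 and 10892, ATGGA 6750 and 6846, ATCT 6231 and 5833, and ATAGA 4560 and 4696. The 2 arrays of each sequence did not overlap with those of its neighbours in this order. On the CPD UV arrays the same 5 lay between 1650 and 2137. Without UV all 5 lay from 979 to 1844 in CPD staining and from 1198 to 2340 in 6-4PP staining.

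Steps on the printed strand gave more signal than steps on its complement. In a regression with separate counts, a printed TC step added 0.78 to log2 6-4PP signal and a complement TC step 0.51; for CT the values were 0.20 and 0.02, and for CC 0.17 and 0.06. With CPD a printed CT step added 0.16 and a complement one 0.06. In 918 pairs the same 8 bases, holding all steps of the member, were printed in both orientations. The orientation with the steps on the printed strand was higher by medians of 0.89 and 0.94 on the 6-4PP UV arrays, against 0.12 and 0.05 without UV. It was the higher one on both UV arrays in 93.5% of pairs, against 41.5% on both arrays without UV. With CPD the medians were 0.22 and 0.21 under UV, against 0.06 and -0.0002 without UV. The CPD share was 64.6% under UV, against 34.6% without UV. The 2039 members with all steps printed and the 2369 with all steps on the complement had medians of 7210 and 7245, and 3493 and 3435, on the 6-4PP UV arrays.

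Individual members spread far around these medians. The pure TC members had 16452 and 16633 (first) and 24696 and 23715 (second) on the 6-4PP UV arrays, and the pure CT members had 3104 and 3975, and 3539 and 3613. The 2 members with 8 CC steps had 3568 and 3232, and 2486 and 2583. With CPD the pure CT members had 2748 and 2269, and 2685 and 2442, against 1581 and 1590, and 1746 and 1769, for the 8-CC members. Over all 7 TC-only members the 6-4PP UV arrays ran from 6759 to 24696, against 1769 to 4167 over all 8 CT-only members, so these did not overlap. Both TC members shown lie above the TC-only medians of 13430 and 15468 on the 6-4PP UV arrays. With CPD the ranges did overlap, at 1619 to 2739 for TC and 1864 to 3985 for CT.

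Among members called with 6-4PP, those of rank 2 to 5 by UV effect had 44261 to 65265 on the UV arrays, against 987 to 1883 without UV. The member of rank 2, with GATC repeated, had 58229 and 62238 on the UV arrays, against 1387 and 1285 without UV (UV effect 3.21 ± 0.11 after centring, SE, limma adjusted p = 3.2e-05). On the second 6-4PP UV array its spot was at the scanner ceiling. The member of rank 3 had 63803 and 65265, against 1361 and 1883. With CPD these 4 members had only 2462 to 3431 on the UV arrays. ATC was held by 41.4% of all members and, by description, by 3590 of the 4785 called higher and by 90 of the 100 with the largest effects.

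The 5 members with the smallest 6-4PP effects had 1464 to 2623 on the UV arrays, against 1190 to 4314 without UV. They held CC or GG runs and no ATC. The lowest but one had 1763 and 1573 on the UV arrays, against 1538 and 1514 without UV, and its effect of -2.16 ± 0.12 (SE, limma adjusted p = 3.2e-05) is relative to the array median. The member nearest to the median 6-4PP effect, tatgcAGCTGGGAcaTCTgtgcgcacg, had 5045 and 5477 on the UV arrays, against 1537 and 1271 without UV.

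With CPD 13 members were called higher than the array median. All 13 held ACT on either strand and 12 held ACTA, which 36.3% and 8.65% of all members hold. Of the 100 members with the largest CPD effects only 51 held ACT and 15 ACTA, against 32 and 6 of the 100 with the smallest. These shares rest on few members: ACTA was held by 2 of the 3 called higher without the second CPD array without UV, by 19 of the 94 without the first CPD UV array and by 18 of the 68 without the second, and of the original 13 members 3, 7 and 7 were among them. With quantile normalization 1 was called and it held no ACTA. The member of rank 2 had 7150 and 4575 on the CPD UV arrays, against 1331 and 985 without UV (UV effect 0.67 ± 0.17, SE, limma adjusted p = 0.0096). That of rank 4, with 2 ACT sites on the printed strand, had 5505 and 5019, against 1163 and 1045 (0.60 ± 0.08, limma adjusted p = 0.00057). Those of rank 2, 3 and 5 lost their calls when the second CPD array without UV was left out, and with the normalised intensity. Rank 3 also lost its call without the second CPD UV array and rank 5 without the first, and under quantile normalization rank 2, 4 and 5 lost their calls (rank 4 at a limma adjusted p of 0.25) and the effect of rank 3 turned to -0.029. The 5 with the smallest CPD effects had 987 to 1839 on the UV arrays, against 1055 to 4182 without UV, and in 2 of them the second array without UV stood alone, at 4182 beside 1380 and at 2405 beside 1244. The member nearest to the median CPD effect, gtatgcaCCGAcgCTAGGAcgcgcacg, had 1990 and 1596 on the UV arrays, against 1215 and 951 without UV.

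One member led both lists. It holds 3 TC, 2 CT and 2 CC steps, lies on a single spot, and had 64444 and 75883 on the CPD UV arrays, against 1183 and 993 without UV, and 83160 and 79004 on the 6-4PP UV arrays, against 1552 and 1172 without UV. Its spot was at the scanner ceiling on both CPD UV arrays. Its CPD effect of 4.36 is therefore a lower bound for the staining of this single spot, and the next highest was 0.67. Member spots at the ceiling also occurred without UV, at 17 and 11 on the CPD arrays and 14 and 8 on the 6-4PP arrays.

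For the difference between the antibodies, the 4 members with the smallest values all held more TC than CC steps. One of them, gtatgcgCTCgCTCGAGCTCgcgcacg, had 1825 and 1625 on the CPD UV arrays, against 1541 and 1070 without UV, and 36800 and 32634 on the 6-4PP UV arrays, against 1473 and 1272 without UV (difference -3.61 ± 0.17, SE, limma adjusted p = 0.00028). Another, tatgcGGcGGAGATCaTCatgcgcacg, rests on 1 CPD array without UV at 5045 beside the other at 1022. Among the 4 largest, gtatgcaCCGGCTAGtatgtatgcacg had 2499 and 2172 on the CPD UV arrays, against 1084 and 1088 without UV, and 2157 and 2644 on the 6-4PP UV arrays, against 2004 and 1912 without UV (1.44 ± 0.21, limma adjusted p = 0.002). The smallest of these 4, gtatgcacAGGCCGGtatgtatgcacg, lost its call when any of 5 of the 8 arrays was left out.

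The limits of the rule cut through a gradual change. TT-free sequences with 3 steps (9095), just outside, stood 0.18 above step-free DNA with CPD and 0.76 with 6-4PP under UV, those with 4 steps 0.20 and 1.04, those with 8 steps 0.30 and 2.22, and those with 9 steps (449) 0.33 and 2.34. Members with a longest run of 7 (415) stood at 0.15 and 1.52, and sequences of the same kind with a run of 8 (156) at 0.16 and 1.63.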

How the data were processed

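Each file gives Alexa 488 intensity for 180880 spots on a linear scale, per the file headers. The authors' deposited intensity carries no background subtraction. Their normalised intensity equalled it in every spot, and their adjusted intensity, used here, is that value over the local median around the spot, times an array constant. No source used here names the software. Spots of 1 sequence were averaged as log2 of the adjusted intensity. The 5014 spots without a sequence were left out of the comparisons. limma 3.58.1 (lmFit, eBayes) in R 4.3.3, with the data.table package (version 1.17.8), fitted all 8 arrays as 4 groups of 2, with Benjamini-Hochberg adjustment over 122095 sequences or 474 classes. The sequence fit was run on simulated data with independent noise on each array. That setting lacks the shared deviations of same-numbered arrays, so it cannot show how the fit behaves under them. Regressions, matched pairs and medians were computed per array with Python 3.11.15, numpy 2.4.6, pandas 2.3.3 and scipy 1.17.1.

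Named sequences followed a rule: for either antibody the 5 largest and 5 smallest UV effects past the threshold whose UV and other arrays do not overlap, the 4 largest and 4 smallest differences, 2 members per pure step type and the members nearest the median effect. For classes it was the 5 highest and 5 lowest per antibody and the pure types. Members, rules and lists were chosen with earlier results of these data known. Alternatives were no centring, quantile normalization, the normalised intensity, the dimmest 25 percent or spots at the ceiling left out, each array left out, a replicate block, class means, larger classes, a G and C term, strands apart and shorter runs. With 2 arrays a group, their number limits the precision.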

Additional observations from a re-analysis of the deposited data

Results flagged for a closer look

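The UV effects of the antibodies differed, by a test of the difference itself, in 10705 members (52.7%, near the 51.7% of all sequences) and in 84 of the 85 composition classes (83.3% of all classes). The spots named as dark corners and negative controls were brighter under UV. On the CPD UV arrays the dark corner spots had a mean of array medians of 4553 and the negative control spots 4167, above every array without UV, where the 2 kinds lay between 958 and 1059. On the 6-4PP UV arrays they had 10368 and 9038, against 758 to 843 without UV. These levels lie above the members' medians under UV. Their part in the results was not tested.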

How the results depend on the processing

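The composition classes called kept their counts within 1.5 times under every alternative run: in the 63 classes of 50 or more sequences, 57 were called with CPD, 63 with 6-4PP and 62 for the difference. A G and C term moved no step coefficient by more than its SD. Quantile normalization, which forces the arrays to 1 distribution, lowered the members called to 1296 with CPD (6.38%, against 6.91% of all sequences), 655 with 6-4PP (3.22%, against 5.37%) and 0 for the difference, as over all sequences (limma; 3578 members at an unadjusted p under 0.05). Leaving out the dimmest sequences left 11762 members to test, of which 9811 were called with CPD (83.4%, against 74.7% of all sequences) and 6383 with 6-4PP (54.3%, against 68.4%). For the difference the members called higher, 1115 as reported, were 338 with the normalised intensity, 119 without the dimmest sequences and 1947 with the random block described last. With 1 array left out the member counts were 16929 to 18680, 13041 to 14390 and 8950 to 10703 for CPD, 6-4PP and the difference, and the class counts 62 to 77, 85 to 85 and 84 to 84. The step coefficients were then 0.017 to 0.025 (TC, CPD), 0.64 to 0.65 (TC, 6-4PP), 0.10 to 0.11 (CT, CPD), 0.11 to 0.11 (CT, 6-4PP), -0.012 to -0.00018 (CC, CPD) and 0.11 to 0.11 (CC, 6-4PP), and the members' UV effect over step-free DNA 0.21 to 0.25 with CPD and 1.43 to 1.47 with 6-4PP. With runs of at most 4 the coefficients of TC were 0.037 (CPD) and 0.68 (6-4PP) and of CT 0.12 (CPD) and 0.14 (6-4PP). The printed strand alone gave TC 0.037 and 0.78, CT 0.16 and 0.20, and CC 0.0064 and 0.17 for CPD and 6-4PP; the complement alone gave TC 0.0040 and 0.51, CT 0.059 and 0.025, and CC -0.017 and 0.061. The cause of these moves was not tested.

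Single sequences turned sign mostly when arrays were not centred, since UV raises the median of the whole array. Of the named members the CPD effects then were 0.73, 0.92, 1.03, 1.18, 1.17, 0.50, 0.59, 0.53, 0.46, 0.77, 0.77 and 0.50, and the 6-4PP effects 0.13, 0.20, 0.21, 0.22, 1.91, 1.62, 1.55, 1.20, 0.88, 1.71, 2.05 and 2.17. Under quantile normalization the CPD effects of tatgcaCTAGTCCgcaCTacgcgcacg and atgcacGATCatGAtaTCgtgcgcacg turned to -0.029 and 0.28, and the 6-4PP effects of the pure CT members to 0.36 and 0.16. With the normalised intensity, an alternative added for the matched pairs after seeing the data, CCA over CCG on the complement turned to -0.00036 with CPD and GCTA over GCCA on the complement to -0.00059 with 6-4PP.

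The replicate numbers did not pair UV arrays with arrays without UV, whose deviations from their group means correlated at 0.0008 with CPD and -0.003 with 6-4PP. A replicate block gave 18586, 14776 and 10977 members called, and 77, 85 and 84 classes. Same-numbered arrays of the 2 antibodies within a condition did deviate together, and taking them as a random block, added after seeing the data, gave 18432, 14476 and 12666. Without UV and with CPD the signal near that of step-free DNA limits what single spots can show.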
